A study of Homo sapiens with 10 samples.

Results

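The effect of depleting NEMP1 in hTERT RPE-1 cells was compared between a soft and a stiff culture substrate, gene by gene. hTERT RPE-1 is an established human line derived from the pigment epithelium of the retina and kept dividing by added telomerase. All 10 libraries of the series entered the comparison, since it needs each of the 4 groups. These were 2 control and 2 siNemp1 libraries from cells on the 10 kPa substrate, and 3 control and 3 siNemp1 libraries from cells on the 120 kPa substrate. siNemp1 is a small interfering RNA treatment against NEMP1, and the labels call the other cells only Control, without naming what they received. For each gene the log2 change under siNemp1 at 10 kPa was subtracted from the log2 change under siNemp1 at 120 kPa. A positive value, called the difference below, means that the knockdown change was higher on the stiff substrate.

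NEMP1 is a protein of the inner nuclear membrane, and the nuclear envelope links the cytoskeleton to chromatin through the LINC complex of SUN and nesprin proteins. Cells sense a stiffer substrate through integrins and contractile actin, and the tension reaches the nucleus by this route. Transcription through YAP and TAZ, through SRF and through AP-1 factors such as FOS is known to respond to stiffness and to tension.

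Library totals ran from 17.9 to 23.8 M estimated reads (M for 1000000), and 13990 of 40664 genes passed the filter on low counts. Replicates were much closer on the soft than on the stiff substrate. The median gene of a library lay 0.0764 to 0.102 log2 units from the other replicates at 10 kPa and 0.136 to 0.281 at 120 kPa, and the common dispersion was 0.00423 in the 10 kPa and 0.0525 in the 120 kPa libraries fitted alone. Nothing in the labels says that replicates came from separate cultures, so every p-value is set against the spread of these libraries alone, and that spread may be technical. Of 13 pigment epithelium markers 5 averaged at least 1 count per 1000000 (CPM), among them BEST1, MITF and OTX2, while the defining visual cycle gene RPE65 averaged 0.0230 CPM. Keratins KRT8 and KRT18 were high, but the epithelial adhesion genes CDH1 and EPCAM were near 0. Among 6 endothelial markers none reached 1 CPM. Of 7 immune markers 3 did, CD68 at a mean of 898 CPM, CD14 at 1.30 and PTPRC at 1.12. The summed level of 8 fibroblast markers, 7 of them at 1 CPM or more, was 1095 to 1101 CPM in soft control libraries. It was 937 to 939 CPM in soft siNemp1, 802 to 1102 in stiff control and 397 to 929 in stiff siNemp1 libraries. Most of this sum was THY1, at a mean of 651 CPM. Of 7 tested members 5 were higher in siNemp1 at 10 kPa and 1 at 120 kPa, with median log2 changes of 0.05 and −0.14. The part of these markers in the results was not tested. Fewer cells of a kind and less RNA per cell cannot be told apart in these bulk libraries.

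NEMP1 (ENSG00000166881), on the minus strand of chromosome 12 at 57055643 to 57088063 (GRCh38, as for all positions below), was lower in siNemp1 on both substrates, and the 95% interval of the difference included 0. It lay at 14.1 and 17.3 CPM in control libraries, against 8.22 and 7.63 in siNemp1 libraries at 10 kPa. At 120 kPa the control libraries held 18.3, 14 and 14.1 CPM and the siNemp1 libraries 7.52, 6.70 and 4.11. The groups did not overlap on either substrate. Unless another fit is named, each standard error (SE) here and below is from the fit of all 10 libraries. That fit shares its estimate of a gene's spread between the substrates. An SE on the soft or the stiff substrate thus does not reflect that replicates were closer at 10 kPa than at 120 kPa. The log2 change was −0.98 ± 0.27 (± SE) on the soft and −1.34 ± 0.22 on the stiff substrate, and the difference was −0.36 ± 0.35, with a 95% interval from −1.12 to 0.41. With each library left out in turn it ran from −0.55 without siNemp1 replicate 1 at 120 kPa to −0.18 without siNemp1 replicate 3, the library with the lowest NEMP1.

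Genes whose groups were separate on both substrates mostly had the same direction on each. Over the 9651 genes that averaged 5 CPM or more, the knockdown changes on the soft and on the stiff substrate correlated across genes with a Pearson r of 0.525 and a Spearman rho of 0.663. The 2 changes share no library, but genes are not independent replicates, and transcript length was related to both (Spearman −0.365 with the change at 10 kPa and −0.420 at 120 kPa over 9585 genes). In 1881 of 13990 tested genes (13.4%) the siNemp1 and control libraries did not overlap on either substrate. Of these, 1121 (8.01% of tested genes) were higher and 676 (4.83%) lower in siNemp1 on both, 52 (0.372%) were lower on the soft and higher on the stiff substrate, and 32 (0.229%) were the reverse. Thus 95.5% of them had the same direction on both substrates, and 98.1% among genes of at least 5 CPM.

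**Figure D1:**
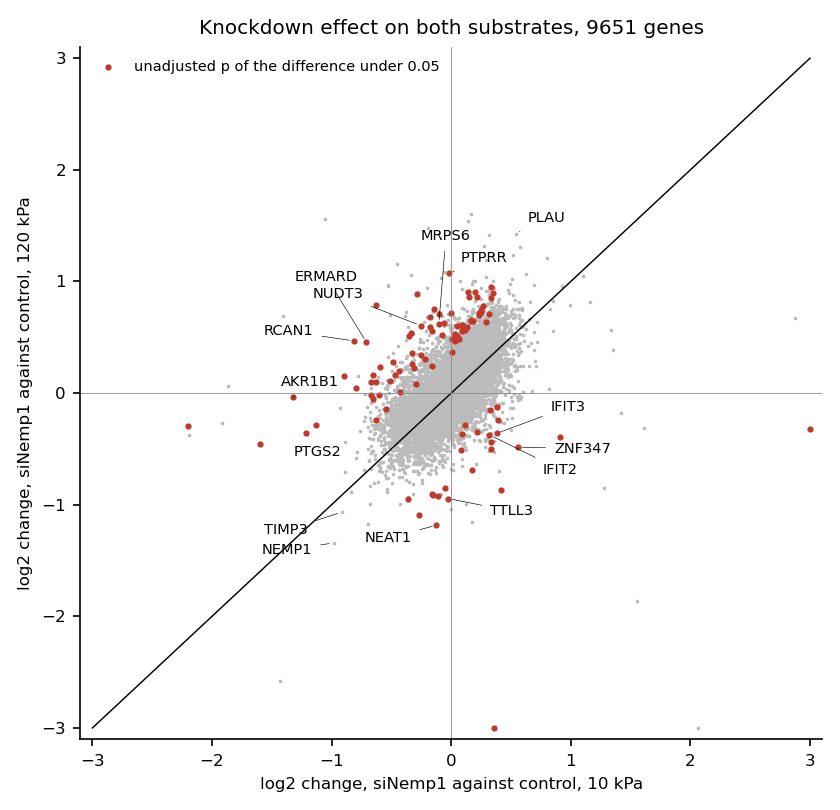
Log2 change under siNemp1 at 10 kPa (x axis) against that at 120 kPa (y axis) for the 9651 genes that averaged 5 CPM or more; each point is a gene, red points had an unadjusted p of the difference under 0.05, and the line marks equal change. Most points follow the line, AKR1B1 lies far to the left near 0 on the y axis and NEAT1 far below near 0 on the x axis; 3 genes beyond 3 log2 units are drawn at the edge.

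The test of the difference itself called few genes. In edgeR's quasi-likelihood fit of all 10 libraries 1 of 13990 genes (0.00715%) passed at a Benjamini-Hochberg adjusted p under 0.05, GATAD2B, and the next lowest adjusted p was 0.779. At an unadjusted p under 0.05 there were 235 genes (1.68%), 158 with a positive (1.13%) and 77 with a negative difference (0.55%). DESeq2 called 3 genes (0.0127% of 23537): GATAD2B, AKR1B1 and the pseudogene DPY19L2P1. Limma voom with a weight for each substrate called 0 (0%); its smallest adjusted p was 0.0778, and 406 genes (2.9%) had an unadjusted p below 0.05. The standard error of the difference was 0.25 log2 units for the median gene of at least 5 CPM, against a median absolute difference of 0.14, so that most differences were below what these libraries could resolve.

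Libraries of the same replicate number deviated together at 120 kPa but not at 10 kPa, and a fit that blocks on this number within each substrate, called the paired fit below, is therefore given beside the results it changed. It called 4 genes for the difference (0.0286%): GATAD2B, AKR1B1, H2AC19 and the read-through gene BLOC1S5-TXNDC5. A fit with 1 block for both substrates called the same 4. Without a filter on low counts edgeR called 70 genes (0.297%), 27 of them under 1 CPM. That count also held AKR1B1 (adjusted p = 0.000145), RCAN1 (0.000427), GADD45B (0.000121), SGK1 (0.00480) and NEAT1 (0.00461). Each of these 5 differences had an adjusted p between 0.779 and 1.00 in the fit with the filter.

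The knockdown change itself, tested on each substrate in the fit of all libraries, called 0 of 13990 genes at 10 kPa (0%) and 0 at 120 kPa (0%). At an unadjusted p under 0.05 there were 850 (6.08%) and 2413 (17.2%). DESeq2 called 16 (0.068%) and 637 (2.71%), and limma voom 868 (6.2%) and 0, with 1737 at 120 kPa at an unadjusted p below 0.05 (12.4%). The paired fit called 1 gene at 10 kPa (0.00715%), AKR1B1, and 2168 at 120 kPa (15.5%), 1402 higher (10%) and 766 lower (5.48%). Fitted alone, the 10 kPa libraries gave 2308 of 13345 genes (17.3%) and the 120 kPa libraries 0 of 13362, with 1451 at an unadjusted p below 0.05 (10.9%). The order of the 2 counts thus turned with the fit, and a count on each substrate does not test whether they differ.

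AKR1B1 (ENSG00000085662, chromosome 7, 134442350 to 134459284, minus strand) had the smallest p of the difference among genes of at least 5 CPM, with a change on the soft and none beyond its error on the stiff substrate. It encodes aldose reductase, which converts glucose to sorbitol and reduces lipid aldehydes. At 10 kPa the control libraries held 1719 and 1760.4 CPM and the siNemp1 libraries 672 and 720.3. At 120 kPa it was 707, 784 and 1042 in control and 745, 800.2 and 923 in siNemp1. The soft control libraries thus stood above all 8 others, and the 2 groups at 120 kPa overlapped. The log2 change was −1.32 ± 0.19 at 10 kPa and −0.04 ± 0.15 at 120 kPa, a difference of 1.28 ± 0.24 with a 95% interval from 0.75 to 1.82. Its adjusted p was 0.779 in edgeR's fit of all libraries, 0.00557 in DESeq2 and 0.00420 in the paired fit, and ran from 0.000145 to 1.0 over 23 alternatives, of which 5 called it. The value ranged from 1.15 to 1.46 with each library left out in turn. AKR1B10, a close paralog, had a mean of 6.99 CPM.

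FOS had the same arrangement at a lower level, and PTGS2 shared the high soft control libraries but was also lower in siNemp1 on the stiff substrate. FOS (chromosome 14, 75278774 to 75282230, plus strand) encodes a subunit of AP-1. It lay at 8.01 and 8.95 CPM in the soft control, 3.65 and 2.83 in the soft siNemp1, 3.12, 2.86 and 3.20 in the stiff control and 3.05, 3.86 and 3.85 CPM in the stiff siNemp1 libraries. The soft control libraries alone were high. The difference was 1.61 ± 0.30, with an adjusted p of 0.779 (edgeR) and 0.0566 at the lowest over the alternatives. PTGS2 (chromosome 1, 186671791 to 186680427, minus strand) encodes the inducible cyclooxygenase that makes prostaglandin precursors. Its soft control libraries held 8.74 and 9.92 CPM and its soft siNemp1 libraries 3.94 and 4.09. On the stiff substrate PTGS2 was at 4.71, 5.90 and 5.48 CPM in control, against 4.28, 4.35 and 3.89 in siNemp1. The siNemp1 libraries were below control on both substrates, with log2 changes of −1.22 ± 0.21 and −0.36 ± 0.17, and the difference was 0.86 ± 0.26.

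The sequences just upstream of FOS and PTGS2 are shown because both genes stood apart in the soft control libraries and belong to an inducible class with known cyclic AMP response elements. They are RefSeq promoter bases on GRCh38.p14, 5′ to 3′ on the strand of the gene, up to the first annotated exon (GENCODE 29), and capitals mark TGACG or its reverse complement CGTCA.
FOS chr14:75278578-75278773, plus strand: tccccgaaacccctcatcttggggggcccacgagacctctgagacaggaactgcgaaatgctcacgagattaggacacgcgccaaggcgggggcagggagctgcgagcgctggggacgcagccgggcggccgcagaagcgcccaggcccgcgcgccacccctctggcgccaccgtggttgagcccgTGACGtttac
PTGS2 chr1:186680428-186680621, minus strand: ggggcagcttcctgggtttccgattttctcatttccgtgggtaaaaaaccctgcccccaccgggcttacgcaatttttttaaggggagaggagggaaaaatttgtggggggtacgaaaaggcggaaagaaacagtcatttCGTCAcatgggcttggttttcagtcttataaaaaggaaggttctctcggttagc
The letters TGACG, searched on both strands in the 250 bases before the RefSeq start, were present in 13 of 19 tested immediate early and AP-1 genes with an entry (68.4%), against 35.3% of 11023 tested genes and 24.9% of 27305 promoters in the table. A match describes the letters only.

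The immediate early and AP-1 list, genes switched on within minutes of a stimulus, had a median log2 change of −0.35 at 10 kPa and 0.11 at 120 kPa. The difference was above 0 in 21 of 23 tested members (91.3%), against 54.7% of all tested genes, with a median of 0.39 against 0.03. Of the 23 members 11 were lower without overlap in siNemp1 and 3 higher at 10 kPa, where 57.3% of all tested genes had no overlap. At 120 kPa, where 17.9% of all had none, 0 were higher and 2 lower. No member was called for the difference and 2 had an unadjusted p under 0.05, FOS and the orphan nuclear receptor NR4A2, named after its value was seen (1.45 ± 0.41, at a mean under 5 CPM). NR4A2 had 155 and 100 estimated reads in the soft control and 44 to 79 in every other library. JUN (0.39 ± 0.91), IER2 (0.45 ± 0.76), DUSP5 (0.48 ± 0.51) and ZFP36 (0.61 ± 0.40) differed by less than 2 standard errors. The median of the list depended on single stiff libraries. Without siNemp1 replicate 3 at 120 kPa it was 0.01, with 12 of 23 members above 0 (6374 of 13884 tested genes). Without both stiff libraries of replicate 3 it was 0.34, with 20 of 23 above (6623 of 13744 tested genes). Without control replicate 1 at 120 kPa it was 0.11, and without control replicate 3 there it was 0.80.

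RCAN1, GADD45B and SGK1 also fell short of the threshold, and 1 stiff library carried much of each difference. RCAN1, an inhibitor of calcineurin, lay at 51.9 and 49.8 CPM in the soft control and 27.9 and 29.8 in the soft siNemp1 libraries. The stiff libraries held 28.3, 30.6 and 31.8 CPM in control, against 32.1, 31.1 and 62.2 in siNemp1. The soft control libraries and stiff siNemp1 replicate 3 were high, and the other libraries lay close together. Its difference was 1.28 ± 0.36, and 0.84 without that replicate. GADD45B, a stress-induced regulator of MAP kinase signalling, was likewise highest in stiff siNemp1 replicate 3 (61.2 CPM) and next in the soft control (34.8 and 35.6). It had a difference of 1.42 ± 0.50, and 0.86 without it. SGK1, a kinase induced by serum, glucocorticoids and cell shrinkage, was lower without overlap at 10 kPa (31.7 and 31.0 CPM in control, 26.1 and 25.3 in siNemp1) and higher at 120 kPa (22.5, 21.5 and 28.9 in control, 34.5, 31.0 and 69.5 in siNemp1). The SGK1 difference was 1.17 ± 0.42, and 0.67 without stiff siNemp1 replicate 3. At 120 kPa SGK1 and GADD45B rose in the paired fit (adjusted p = 0.00649 and 0.0220, edgeR).

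**Figure D2:**
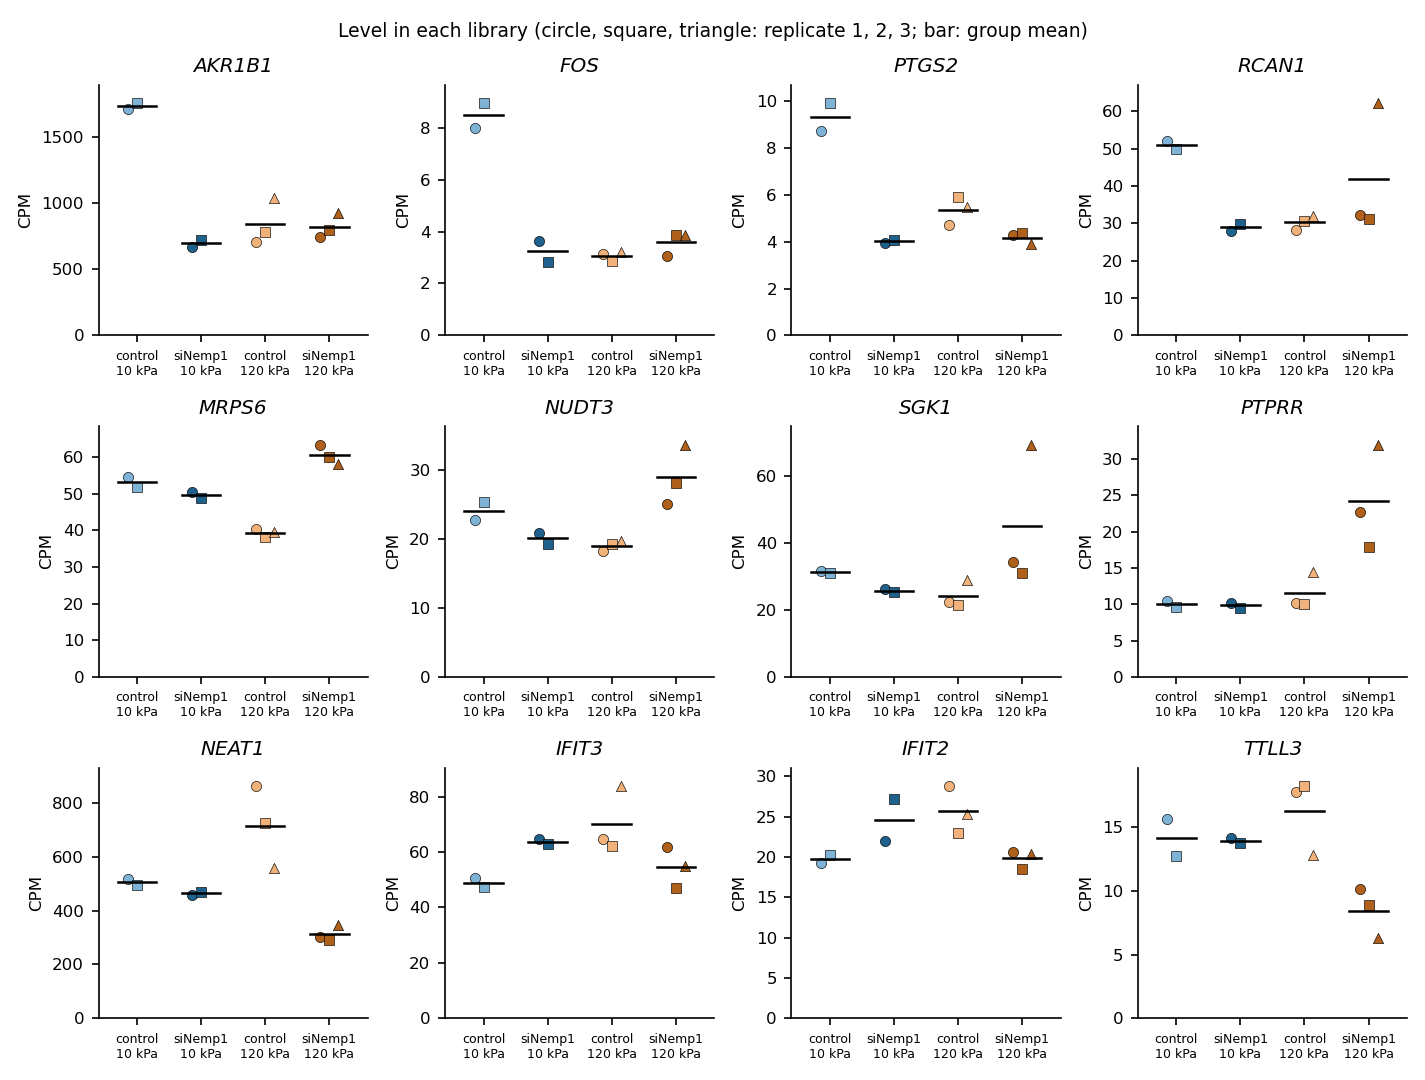
Level in CPM of 12 genes in each of the 10 libraries, grouped by treatment and substrate (blue for 10 kPa, orange to brown for 120 kPa, light for control, dark for siNemp1); circles, squares and triangles are replicates 1, 2 and 3 and the bar is the group mean. In the top row the soft control libraries are high (for RCAN1 also stiff siNemp1 replicate 3), in the middle row the stiff siNemp1 libraries are high, and in the bottom row the stiff siNemp1 libraries are below their controls.

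A second set of genes was higher in siNemp1 on the stiff substrate, and some of them, such as MRPS6 and PTPRR, lay flat on the soft one. MRPS6 (chromosome 21, 34073224 to 34143034, plus strand) encodes a protein of the small mitochondrial ribosomal subunit. It was at 54.7 and 51.9 CPM in the soft control and 50.4 and 48.7 in the soft siNemp1 libraries. The stiff libraries held 40.3, 38.2 and 39.6 CPM in control, against 63.5, 59.9 and 58.2 in siNemp1. Stiff control was lowest and stiff siNemp1 highest, with no overlap with any other group. The log2 change was 0.62 ± 0.09 at 120 kPa (adjusted p = 0.00351 in edgeR's paired fit) and −0.10 ± 0.11 at 10 kPa. The difference of 0.72 ± 0.15 stayed between 0.68 and 0.76 with each library left out, but its adjusted p was 1.0 (0.275 at the lowest over the alternatives). SLC5A3, a sodium and myo-inositol cotransporter on the same strand within the MRPS6 span, had a mean of 23.7 CPM, so reads of the 2 genes may be divided between them.

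PTPRR, a tyrosine phosphatase of MAP kinases, was at 10.4, 9.60, 10.2 and 9.54 CPM in the 4 soft libraries. It was at 10.1, 9.97 and 14.4 CPM in the stiff control and 22.8, 17.8 and 32.0 in the stiff siNemp1 libraries. All 3 stiff siNemp1 libraries stood above all others. It rose on the stiff substrate in the paired fit (adjusted p = 0.00351, edgeR), and the difference was 1.09 ± 0.35, from 0.79 to 1.28 with each library left out. NUDT3, a hydrolase of diphosphoinositol phosphates and capped RNA, was lower without overlap on the soft substrate (22.7 and 25.3 against 20.8 and 19.3 CPM) and higher on the stiff one (18.2, 19.2 and 19.7 against 25.1, 28.1 and 33.7). Its difference was 0.86 ± 0.21. The read-through gene RPS10-NUDT3 overlaps it on the same strand, had a mean of 85.8 CPM and a difference of −0.12 ± 0.21, so the estimate for NUDT3 depends on how shared reads were divided. ERMARD, which encodes a membrane protein of the endoplasmic reticulum, and PHF10, a subunit of the PBAF chromatin remodeller, lie close together on chromosome 6 and had the same opposed directions, with differences of 1.16 ± 0.33 and 0.69 ± 0.28. Among genes of at least 5 CPM, 19 were lower on the soft and higher on the stiff substrate without overlap (0.197%) and 13 the reverse (0.135%), of 1663 without overlap on both (17.2%).

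NEAT1 (chromosome 11, 65422774 to 65445540, plus strand) had the smallest p among negative differences of genes of at least 5 CPM. It is the long noncoding RNA around which nuclear paraspeckles assemble. It was at 518 and 494 CPM in control libraries, against 459 and 469 in siNemp1 libraries on the soft substrate. On the stiff substrate it was at 862, 726 and 557 in control and at 304, 292 and 348 in siNemp1. The stiff controls were the highest 3 libraries and the stiff siNemp1 libraries the lowest 3. NEAT1 fell on the stiff substrate (−1.18 ± 0.15, and adjusted p = 0.00351 in edgeR's paired fit), and its change at 10 kPa was −0.13 ± 0.19. The difference was −1.06 ± 0.24, with a 95% interval from −1.59 to −0.53. It ranged from −1.22 without stiff control replicate 3 to −0.90 without stiff control replicate 1, and its adjusted p ran from 0.00461 to 1.0 over 23 alternatives. MALAT1, the neighbouring nuclear RNA of speckles, fell at 120 kPa in the paired fit (adjusted p = 0.00721) and had a difference of −0.57 ± 0.32. Of 11 nuclear noncoding RNAs and paraspeckle proteins 6 fell and 0 rose at 120 kPa in that fit, where 5.48% of all tested genes fell and 10% rose. The difference was above 0 in 3 of the 11 (27.3%, against 54.7% of all tested genes), with a median of −0.22.

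TTLL3, a tubulin glycine ligase, was at 15.6, 12.7, 14.2 and 13.7 CPM in the soft libraries, where the groups overlapped. Its stiff libraries held 17.8, 18.2 and 12.8 CPM in control, against 10.2, 8.90 and 6.31 in siNemp1, with no overlap. The difference was −0.92 ± 0.32. HLA-DMA, which loads peptides onto class II molecules, had a change of −1.03 ± 0.31 at 120 kPa and −0.00 ± 0.37 at 10 kPa. BRD2 overlaps HLA-DMA on the other strand at a mean of 167 CPM. TTLL3 is overlapped by RPUSD3 on the other strand (24.1 CPM) and by ARPC4-TTLL3 on the same strand (1.78 CPM, difference 0.97 ± 0.99). The estimates for HLA-DMA and TTLL3 may thus depend on how shared reads were divided. For MTCH2, an outer mitochondrial membrane insertase, the difference of −5.24 ± 1.68 rests on estimates near 0 in 4 libraries, 0.226 CPM in stiff control replicate 1 and 0.393 to 0.636 in the stiff siNemp1 libraries, against 20.6 to 33.8 in the other 6. Thus 1 stiff control library had the level of the stiff siNemp1 group.

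IFIT3 and IFIT2, antiviral genes induced by interferon that bind foreign RNA, were higher in siNemp1 on the soft and lower on the stiff substrate, without overlap on either. IFIT3 (chromosome 10, 89327894 to 89340971, plus strand) was at 50.6 and 47.2 CPM in control libraries, against 64.6 and 62.7 in siNemp1 libraries at 10 kPa. At 120 kPa it was at 64.7, 62.1 and 83.8 in control and 61.8, 47.2 and 55 in siNemp1. The soft siNemp1 libraries lay within the range of the stiff controls. The difference was −0.74 ± 0.22, and −0.60 to −0.85 with each library left out. IFIT2 was at 19.3 and 20.2 CPM in the soft control, 22.0 and 27.2 in the soft siNemp1, 28.8, 23.0 and 25.3 in the stiff control and 20.6, 18.5 and 20.3 CPM in the stiff siNemp1 libraries, a difference of −0.69 ± 0.21. Neither difference passed (adjusted p of 1.0 for both, edgeR). In the paired fit both fell at 120 kPa (adjusted p = 0.0448 for IFIT3 and 0.0377 for IFIT2). LIPA overlaps both on the other strand at a mean of 104 CPM, and since no source used here gives the strandedness, reads of the overlapping parts cannot be told apart.

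The promoter of IFIT3 is shown because the gene had opposed changes and its class carries a known element. It is RefSeq sequence on GRCh38.p14 up to the first annotated exon, and capitals mark GAAA, any 2 bases, GAAA, here on the reverse strand (TTTC, 2 bases, TTTC), the core of the interferon-stimulated response element.
IFIT3 chr10:89327747-89327893, plus strand: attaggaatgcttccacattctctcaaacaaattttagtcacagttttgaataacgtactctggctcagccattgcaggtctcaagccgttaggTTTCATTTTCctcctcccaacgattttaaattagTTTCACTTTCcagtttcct
These letters on either strand of the 250 bases before the start were found in 17 of 24 tested interferon-stimulated genes with an entry (70.8%), against 3.34% of 11023 tested genes and 3.71% of 27305 promoters. The list was drawn up from genes known to be induced by interferon, so the share describes the list and not its response to knockdown.

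Of 32 tested interferon-stimulated genes 25 had a difference below 0 (7 above, 21.9% against 54.7% of all tested genes). The median change was 0.06 at 10 kPa and −0.31 at 120 kPa, and the median difference −0.26 against 0.03 over all genes. In the paired fit 7 members fell and 0 rose at 120 kPa, where 5.48% of all tested genes fell and 10% rose. BST2, which tethers virus particles (−0.49 ± 0.25), PARP9 (−0.41 ± 0.22), OASL (−0.93 ± 0.48) and IFI6 (−1.34 ± 0.76) had negative differences, and MX1 (0.47 ± 0.59) and IRF9 (0.27 ± 0.55) positive ones. With each library at 120 kPa left out the median stayed negative, from −0.42 without siNemp1 replicate 1 to −0.21 without control replicate 1 or 3.

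The 13 protein-coding genes of mitochondrial DNA, subunits of the respiratory chain, had a median change of −0.17 on the soft and −0.62 on the stiff substrate. Of the 13, 12 differences were below 0, with a median of −0.46, while 54.7% of all tested genes were above 0. In the paired fit 9 had an unadjusted p under 0.05, against 2.32% of all tested genes with a negative difference. In that fit 12 of 13 fell at 120 kPa, where 5.48% of all tested genes fell. In the fit of all libraries 0 of the 13 had an unadjusted p of the difference under 0.05, against 1.68% of all tested genes. At 120 kPa 0 of the 13 were without overlap, against 17.9% of all tested genes. Genes of the same mitochondrial DNA are not independent members. MT-CO1, the catalytic subunit of cytochrome c oxidase, was at 3508 and 3002 CPM in the soft control and 4197 and 4393 in the soft siNemp1 libraries. On the stiff substrate it was at 3647, 3142 and 1564 in control and 2745, 1429.8 and 974 in siNemp1. It was thus higher in siNemp1 on the soft substrate, and the stiff groups overlapped, with a difference of −1.10 ± 0.59. The mitochondrial share of all reads was 1.48% to 1.60% at 10 kPa, 0.913% to 1.73% in stiff control and 0.709% to 1.06% in stiff siNemp1 libraries. The median difference of the list ran from −0.69 without stiff control replicate 3 to −0.25 without stiff control replicate 1, the 2 libraries at the ends of that control range.

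Nuclear genes of the same organelle had the opposite sign. Of 32 nuclear-encoded respiratory chain genes 28 had a difference above 0 (87.5%, against 54.7% of all tested genes). Their median changes were 0.23 at 10 kPa and 0.36 at 120 kPa. In the paired fit 24 of the 32 rose at 120 kPa and 0 fell, where 10% of all tested genes rose and 5.48% fell. SDHD, the membrane anchor of complex II, was at 97.7 and 101 CPM in the soft control and 121 and 118 in the soft siNemp1 libraries. It was at 113, 96.1 and 127 CPM in the stiff control and 205, 178 and 193 in the stiff siNemp1 libraries. It was higher without overlap on both substrates, and more so on the stiff one (difference 0.52 ± 0.19). Of 43 cytosolic ribosomal protein genes 39 had a difference above 0 (90.7%), with a median of 0.16. In the paired fit 19 of the 43 rose at 120 kPa, again against 10% of all tested genes. Without stiff siNemp1 replicate 3 the median was 0.07 in both lists. RPS6 was at 831 and 846 CPM in the soft control and at 960.5 and 1023 in the soft siNemp1 libraries, and its difference was 0.31 ± 0.29. Genes of this class are short: over 9585 genes the difference had a Spearman correlation of −0.165 with transcript length, with a median of 0.09 among genes up to 1637 bases and −0.01 among those of 3981 bases or more. With length and GC trends removed, an alternative chosen after seeing the data, the median difference was 0.07 in the respiratory chain list (24 of 32 above 0). It was 0.07 in the ribosomal protein list (34 of 43) and −0.00 over all tested genes (6913 of 13990).

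**Figure D3:**
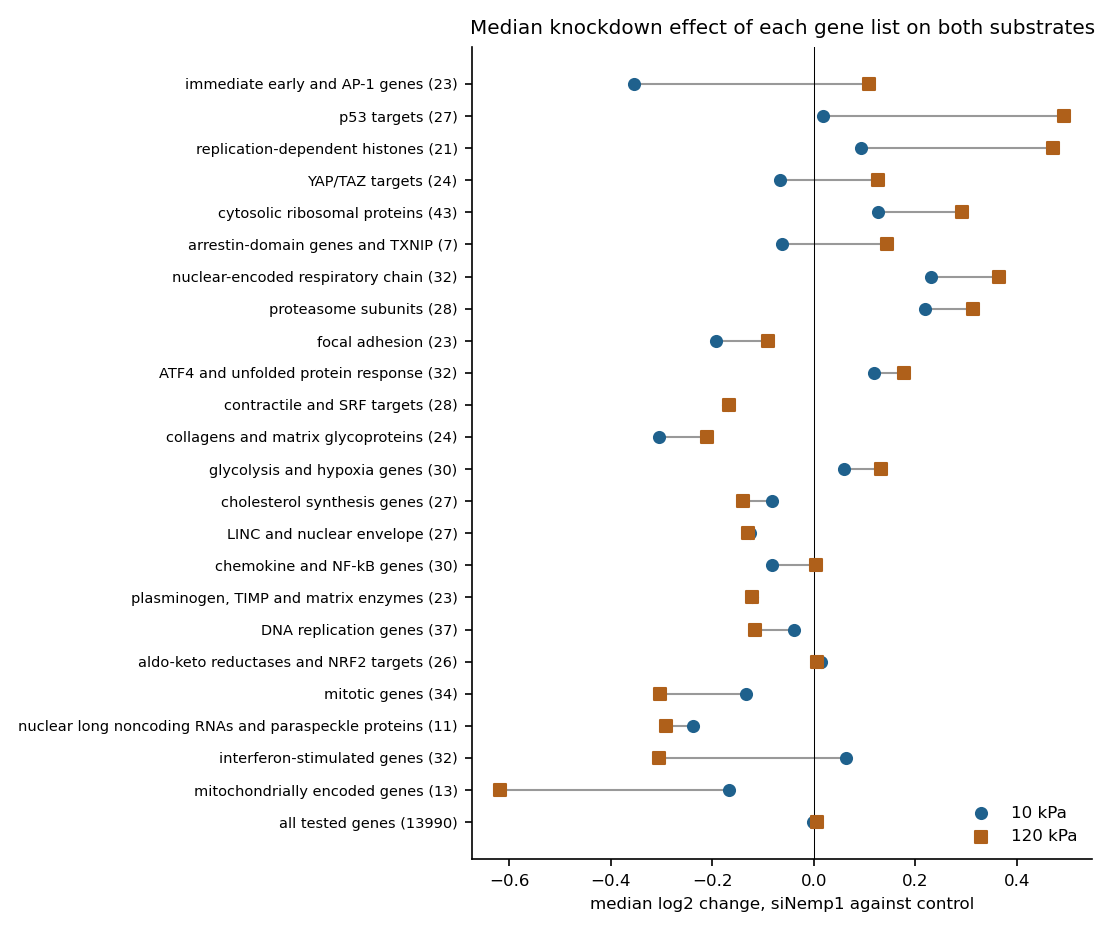
Median log2 change under siNemp1 of each gene list at 10 kPa (blue circles) and at 120 kPa (brown squares), with the number of tested members in brackets; a grey line joins the 2 medians of a list. The immediate early and AP-1 list moves from −0.35 to 0.11, the p53 targets from 0.02 to 0.49, the interferon-stimulated genes from 0.06 to −0.31 and the mitochondrially encoded genes from −0.17 to −0.62, and all tested genes stay near 0.

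The p53 targets, which arrest the cell cycle or start cell death after damage, had a median change of 0.02 on the soft and 0.49 on the stiff substrate. Of 27 members 25 had a difference above 0 (92.6%, against 54.7% of all tested genes), with a median of 0.37. In the paired fit 11 rose and 0 fell at 120 kPa (10% and 5.48% of all tested genes). At 120 kPa 1 of the 27 was without overlap, against 17.9% of all tested genes. In the fit of all libraries 0 of the 27 had an unadjusted p of the difference under 0.05, against 1.68% of all tested genes. In the named members siNemp1 replicate 3 at 120 kPa was the highest library. The death receptor FAS was at 19.2 and 21 CPM in the soft control and 21.7 and 23.8 in the soft siNemp1 libraries. It was at 22.6, 22.8 and 31.0 CPM in the stiff control and 29.7, 35 and 88.9 in the stiff siNemp1 libraries. Its difference was 0.83 ± 0.55, and 0.12 without that replicate. BTG2, an antiproliferative gene, was at 11.3, 25.8 and 102 CPM in the stiff siNemp1 libraries, and its difference was 1.40 with and 0.05 without replicate 3. The cell cycle inhibitor CDKN1A was at 352 and 366 CPM in the soft control, 367 and 320.3 in the soft siNemp1, 260.4, 505 and 839 in the stiff control and 325, 659 and 1274 CPM in the stiff siNemp1 libraries. Within each number at 120 kPa siNemp1 was above control, by 0.32, 0.38 and 0.60 on the log2 scale of CPM plus 0.5, and CDKN1A rose in the paired fit (adjusted p = 0.00995, edgeR). Its difference was 0.56 ± 0.78. The median difference of the list was −0.06 without siNemp1 replicate 3, with 10 of 27 members above 0 (6374 of 13884 tested genes). It was 0.74 without control replicate 3. Without both of these it was 0.13, with 18 of 25 above 0 (6623 of 13744 tested genes).

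Targets of YAP and TAZ, the pair of coactivators that enter the nucleus on stiff substrates, had medians of −0.07 at 10 kPa and 0.13 at 120 kPa. In the paired fit 2 of 24 members rose and 3 fell at 120 kPa, where 10% of all tested genes rose and 5.48% fell. Of the 24 members 21 had a difference above 0 (87.5%, against 54.7% of all tested genes), with a median of 0.21. Without siNemp1 replicate 3 the median was −0.04, with 11 above 0 (6374 of 13884 tested genes). Without both stiff libraries of replicate 3 it was −0.01. CCN1, a matricellular protein, was at 38.1, 104 and 119 CPM in the stiff control and 49.5, 109 and 227 in the stiff siNemp1 libraries, and its difference was 0.40 ± 0.86. CCN2 (0.24 ± 0.41) and ANKRD1 (0.20 ± 0.49) likewise differed by less than their errors. In these 3 genes siNemp1 replicate 3 was the highest of all 10 libraries. The histone list, too, had a median of 0.36 with and −0.05 without that replicate, and 0.34 without both stiff libraries of that number. It was 0.20 with length and GC trends removed.

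**Figure D4:**
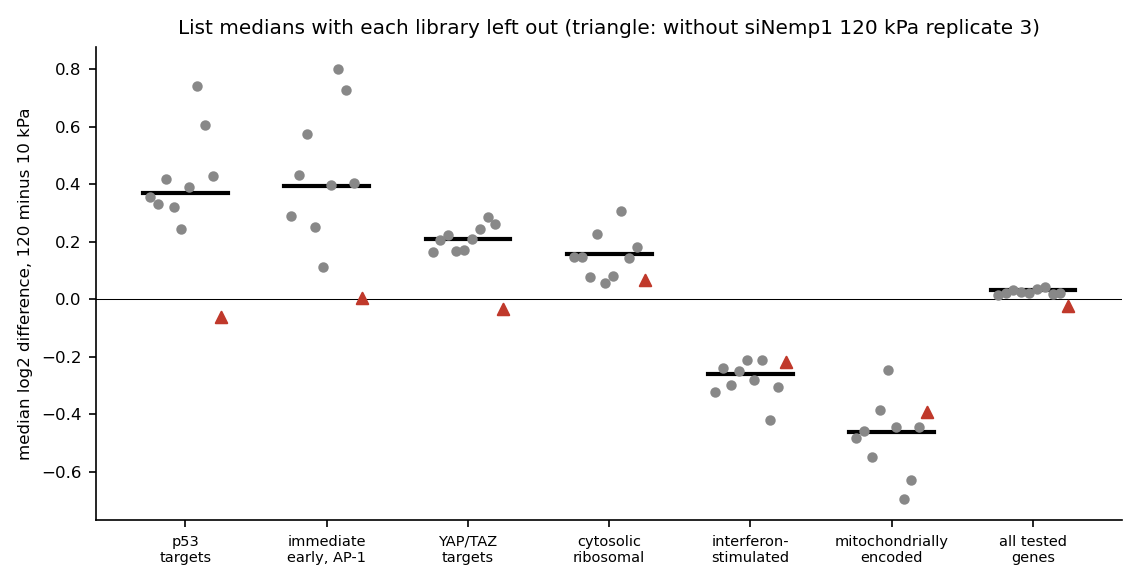
Median log2 difference between substrates of 6 gene lists and of all tested genes; the black bar is the value from all libraries, grey points leave out 1 library each, and the red triangle leaves out siNemp1 replicate 3 at 120 kPa. The triangle falls to 0.01 or below for the p53, immediate early and YAP/TAZ lists, and lies within the other points for the interferon-stimulated and mitochondrially encoded lists.

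No gene of the nuclear envelope list had an unadjusted p of the difference under 0.05. The 27 tested members of the LINC and nuclear envelope list had medians of −0.13 at 10 kPa and −0.13 at 120 kPa. With length and GC trends removed these medians were 0.01 and −0.02, so the lower medians depended on the processing. In the fit of all libraries 13 of the 27 differences were above 0 (48.1%, against 54.7% of all tested genes). The difference was −0.01 for SUN1 (95% interval −0.56 to 0.54) and −0.00 for SUN2 (−0.82 to 0.81), the inner membrane proteins of the LINC complex. It was 0.29 for emerin, EMD (−0.32 to 0.90), −0.04 for lamin A, LMNA (−1.11 to 1.04), and −0.16 for lamin B1, LMNB1 (−1.24 to 0.91). For NEMP2, the paralog of NEMP1, it was 0.25 (−0.34 to 0.84). The interval for LMNA allows more than a 2-fold difference in either direction.

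Of the matrix and proliferation genes, FN1, TIMP3, MKI67 and PLAU of the fixed set had the same direction on both substrates. COL4A2, a chain of basement membrane collagen, had log2 changes of −0.30 ± 0.14 at 10 kPa and 0.32 ± 0.12 at 120 kPa in the paired fit. Neither passed (adjusted p = 0.357 and 0.0920, edgeR), and the stiff groups overlapped. The COL4A2 difference was 0.64 ± 0.43, and 0.32 without stiff siNemp1 replicate 3. FN1, fibronectin, was at 9357 and 9085 CPM in control libraries, against 5813 and 5731 in siNemp1 libraries at 10 kPa, and at 8924, 7841 and 4933 against 5429, 4773 and 1948 at 120 kPa. It was lower in siNemp1 within each replicate number, and the difference was −0.16 ± 0.52. TIMP3, an inhibitor of matrix proteases, had a difference of −0.15 ± 0.41, and the proliferation antigen MKI67 one of −0.19 ± 0.31. All 3 fell at 120 kPa in the paired fit (adjusted p = 0.00351, 0.00540 and 0.00964, edgeR). PLAU, urokinase, was higher without overlap on both substrates, with 51.1 and 60.6 against 82.8 and 79.4 CPM at 10 kPa and 53.1, 63.9 and 57.5 against 104, 125 and 240.5 at 120 kPa. The PLAU difference was 0.89 ± 0.41, and 0.40 without stiff siNemp1 replicate 3. The reference genes ACTB (−0.10 ± 0.26) and GAPDH (−0.08 ± 0.28) did not differ beyond their errors.

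Which group stood apart was counted over the genes of at least 5 CPM with an unadjusted p of the difference under 0.05. Of 73 such genes with a positive difference, the stiff siNemp1 libraries stood above all others in 37 and the soft control libraries in 15. Of 25 with a negative one, the stiff siNemp1 libraries stood lowest in 12 and the soft siNemp1 libraries highest in 6. Over all 9610 genes of that level with a standard symbol, stiff siNemp1 was highest in 10% and lowest in 5.21%, soft control highest in 8.55% and soft siNemp1 highest in 1.33%. The same values gave these genes their small p, so the counts are a description.

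The 3 genes called beside AKR1B1 in the paired fit rest on few or shifting reads. GATAD2B (chromosome 1, 153789030 to 153923360, minus strand), a subunit of the NuRD deacetylase complex, had 83.4 and 81.3 estimated reads in the soft control and 17.4 and 16.4 in the soft siNemp1 libraries. It had 1.02, 2.29 and 2.31 estimated reads in the stiff control and 19.4, 55.5 and 47.4 in the stiff siNemp1 libraries. No groups overlapped on either substrate, and the directions were opposed. The difference was 6.92 ± 0.73 in the fit (adjusted p = 0.0207, edgeR), at a mean of 1.57 CPM, and its adjusted p ran from 1.21e-16 to 0.318 over 22 alternatives, 13 of which called it. H2AC19 and H2AC18 are near-identical histone H2A genes. All estimated reads were given to H2AC18 in 8 libraries and all to H2AC19 in the other 2, soft siNemp1 replicate 1 and stiff control replicate 3. The sum of both was 135 to 371 in every library. BLOC1S5-TXNDC5 was listed at 0 in 6 libraries and at 94.2 to 439 estimated reads in 4, one or more of every group except stiff siNemp1, while TXNDC5 itself stayed at 3341 to 4722.

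**Figure D5:**
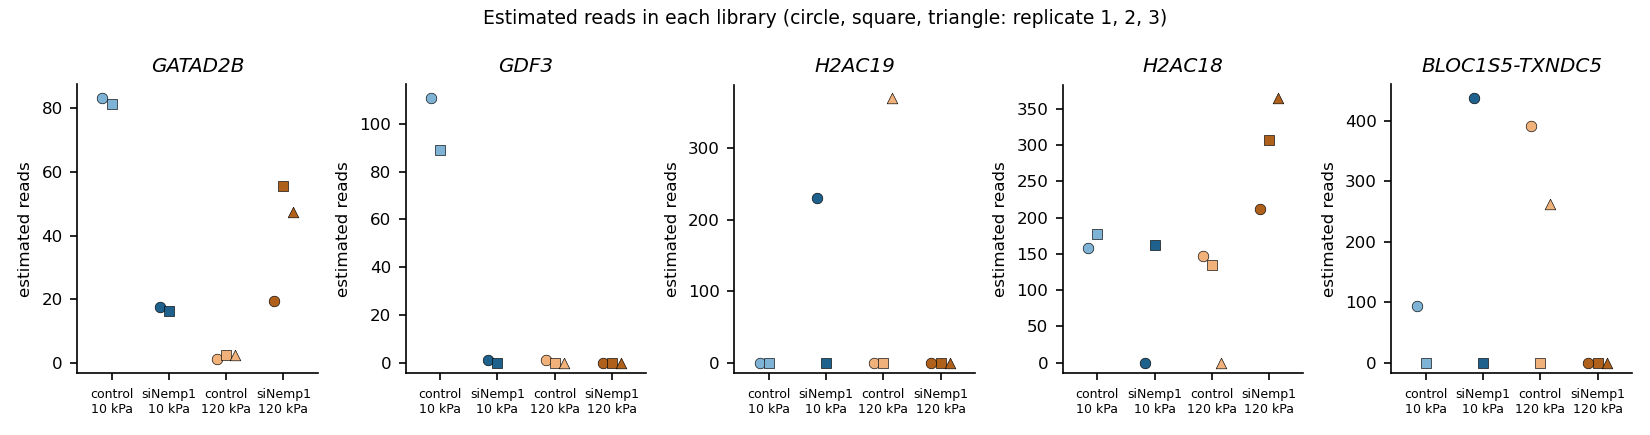
Estimated reads of 5 genes in each library, grouped by treatment and substrate (blue for 10 kPa, orange to brown for 120 kPa, light for control, dark for siNemp1; circles, squares and triangles are replicates 1, 2 and 3). GATAD2B and GDF3 are high in the soft control libraries, while H2AC19 and BLOC1S5-TXNDC5 are at 0 in 8 and in 6 libraries.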

How the data were processed

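RNA-seq of all 10 libraries was analysed from 1 table of estimated counts per gene deposited by the authors. Salmon 1.80, Trimmomatic 0.33, FastQC 0.11.9, edgeR and GRCh38/hg38 are listed in the submitters' processing notes. No source used here gives the transcript annotation or how transcripts were summed to genes. Counts were rounded, then scaled by TMM, filtered with filterByExpr and fitted with edgeR 4.0.16 (robust quasi-likelihood, 1 mean per group, R 4.3.3), with Benjamini-Hochberg adjustment across every gene tested. Levels are TMM-scaled CPM, and coordinates are from GENCODE 29. The genes and 28 lists were chosen with earlier results of these data known.

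Named genes have a standard symbol and a mean of at least 5 CPM. They are the 6 smallest p of the difference in each direction, the 4 strongest opposed changes in each direction, the 3 strongest changes on 1 substrate with an absolute log2 change under 0.1 on the other, up to 4 members of each list, and a fixed set at any level. GATAD2B, NR4A2, H2AC18, H2AC19, BLOC1S5-TXNDC5, GDF3 and the osmolyte genes were named after their values were seen, as were list members given beyond 4.

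Deviations from group means of libraries sharing a replicate number correlated at 0.608, 0.305 and 0.482 at 120 kPa and 0.0157 at 10 kPa. The labels do not say what the number stands for. Alternatives were DESeq2 1.42.0, limma 3.58.1 voom, other scalings and filters, replicate blocks, and libraries left out. Removal of length and GC trends (mgcv 1.9.3) was chosen after seeing the data. The fitting script was tested on simulated data.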

Additional observations from a re-analysis of the deposited data

Results flagged for a closer look

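In the fit of all libraries or the paired fit, the test of the difference between substrates itself passed the threshold for 4 genes. GATAD2B had a difference of 6.92 on the log2 scale with all 10 libraries, at 1.02 to 83.4 estimated reads a library. The other 3 passed with the replicate number as a block within each substrate. AKR1B1 had a difference of 1.30 in that fit. BLOC1S5-TXNDC5 had a fitted difference of −12.75 and H2AC19 one of −19.65. Both of these rest on groups listed at 0, so the fitted values are no measure or bound of a fold. Groups of 2 and 3 libraries are too small to tell whether a single library is an outlier. Values with each library left out in turn are given for some genes and lists.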

How the results depend on the processing

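Counts of genes called depended on the fit. For the difference between substrates, 1 gene was called with all libraries, 3 by DESeq2, 70 without a filter on low counts, 0 with a filter of 5 CPM in 2 libraries and 0 by limma voom. The replicate block gave 4, the block within each substrate 4, and that block with length and GC trends removed 4. Leaving out 1 library gave 0 to 3, and leaving out both 120 kPa libraries of replicate 1, 2 or 3 gave 2, 0 and 0. For knockdown at 10 kPa the 0 genes became 16 with DESeq2, 66 without a filter, 868 with limma voom, 2308 in the 10 kPa libraries alone, 4 with the replicate block, 1 with the block within each substrate, 2 with length and GC trends removed and 13 with that and the block. Leaving out 1 library gave 0 to 2, and leaving out both of a number 2, 0 and 3. For knockdown at 120 kPa the 0 genes became 637 with DESeq2, 643 without a filter, 119 with the 5 CPM filter, 1224 with the replicate block, 2168 with the block within each substrate, 21 with the trends removed and 1727 with that and the block. Leaving out 1 library gave 0 to 582 (582 without control replicate 3 at 120 kPa, 11 without siNemp1 replicate 3), and leaving out both of a number 2, 0 and 760. The causes were not tested. In the fit of all libraries only GATAD2B was called and lists were not tested, so there were few called directions to reverse. Signs did change. Without siNemp1 replicate 3 at 120 kPa the median difference of the YAP/TAZ targets went from 0.21 to −0.04. CLDN1 and F3, called with positive differences without a filter on low counts, were then at −0.22 and −0.11. AKR1B1 and NEAT1 kept their sign with each library left out. Of the differences of named genes 3221 values kept their side of the threshold, 28 gained and 9 lost it, and 73 moved. Upper-quartile scaling shifted the median difference of all genes from 0.03 to −0.02. With 2 libraries a group at 10 kPa, small differences could not be resolved.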

Other observations

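Genes of organic osmolyte handling were looked up after the value of AKR1B1 was seen, since aldose reductase makes the osmolyte sorbitol. They are given as values with no test. SLC5A3, which imports myo-inositol, lay at 39.5 and 33.1 CPM in the soft control, at 22.6 and 23.0 in the soft siNemp1, at 22.7, 18.1 and 16.5 in the stiff control and at 25.2, 21.5 and 14.9 CPM in the stiff siNemp1 libraries. As for AKR1B1, the soft control libraries were the highest of all 10. SLC6A12, which imports betaine, was detected at 1.70 and 0.917 CPM in the soft control libraries, at 0.0983 CPM in 1 stiff siNemp1 library, and was listed at 0 in the other 7. The taurine transporter SLC6A6 (0.02 ± 0.33), the neutral amino acid transporter SLC38A2 (0.01 ± 0.31) and the tonicity-responsive factor NFAT5 (0.21 ± 0.20) had differences near or below 1 standard error. GDF3, a ligand of the TGF-beta family, had 111 and 89 estimated reads in the soft control and 0 or 1 in every other library.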
